A study of Mus musculus with 6 samples.

Results

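The genes described here encode the amyloid precursor protein family (App, Aplp1 and Aplp2), secretase components that cut its members (Psen2 and Bace1), tau (Mapt) and the apolipoproteins E and J (Apoe and Clu). They were taken by listed symbol, each matched to 1 Ensembl identifier, and are 8 of the 55471 genes in the table. The hippocampus of 6 C57BL/6 mice (C57BL/6J in the study's methods) of 3 to 6 months was profiled by RNA-seq, with 1 library per mouse, in 3 p300-ifKO mice and 3 control mice. The study's methods give the mice of both groups as male. In p300-ifKO (inducible forebrain knockout) mice, floxed Ep300, the gene for the acetyltransferase p300, is recombined by creERT2, a Cre recombinase that tamoxifen switches on. The Camk2a promoter drives creERT2 in excitatory forebrain neurons, so other neurons, glia and vessels keep an intact gene. Tamoxifen, at 20 mg/ml, was given 5 times to both groups. The protocol calls the controls creERT2-negative littermates, whereas the description of every control library names Camk2a_creERT2 and that of every p300-ifKO library names Ep300_flox together with Camk2a_creERT2. The comparison asks how the RNA level of these genes in the hippocampus differs between controls and mice that lose p300 from excitatory neurons. If controls lack creERT2, as the protocol says, loss of p300 cannot be told apart from presence of the driver and active Cre.

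The amyloid precursor protein is a membrane protein of neurons. The beta-secretase Bace1 cuts it outside the membrane, and the gamma-secretase complex, whose catalytic subunit is a presenilin, then cuts within the membrane and frees amyloid-beta, the peptide of the plaques in Alzheimer disease. An alpha-secretase cut destroys the amyloid-beta sequence instead. Aplp1 and Aplp2 are cut by the same kinds of enzyme but hold no amyloid-beta sequence. Tau binds and stabilizes microtubules in axons and is released from them when kinases phosphorylate it. Apolipoprotein E, made mostly by astrocytes and by activated microglia, carries lipid between brain cells and binds amyloid-beta, and clusterin (apolipoprotein J) is a secreted chaperone made mostly by astrocytes.

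Libraries held between 23151568 and 28433823 counts. The targeted gene, Ep300, had 1545, 1474 and 2334 normalized counts (counts divided by the DESeq2 size factor of the library) in control mice and 478, 1350 and 912 in p300-ifKO mice, with a difference of -0.97 on the log2 scale (DESeq2, SE 0.33, adjusted p = 0.991). Its paralogue Crebbp differed by -0.05 (SE 0.11) on the same scale. Of 32773 genes tested by DESeq2, 2 (0.0061%) had an adjusted p under 0.05. These were Esr1, the estrogen receptor gene from a form of which creERT2 takes its ligand-binding domain, with a log2 fold change of 4.96, and Arsi, with 2.56. Esr1 had 109, 87 and 108 normalized counts in control mice and 4217, 2416 and 2868 in p300-ifKO mice. The paper ascribes both rises to the creERT2 driver line, whose transgene carries Arsi, and gives its controls as lacking creERT2. The control libraries did not show these rises. The edgeR quasi-likelihood test called 2 of 17131 genes (0.0117%). The library of p300-ifKO replicate 1 stood apart from the others: among 12253 genes with a mean of at least 100 normalized counts it was the highest or the lowest of the 6 libraries for 81.5%. The fold changes, group levels and shares are therefore also given without it. Marker genes of neurons (excitatory and inhibitory), of the 3 main glial types and of vessels, choroid plexus and blood all had counts in every library. The RNA came from whole tissue, so fewer cells of a type and less RNA per cell cannot be told apart.

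None of the 8 genes passed the threshold in the comparison of p300-ifKO with control. DESeq2 gave an adjusted p of 0.991 for each of the 8, against 0.0061% of all genes called, and none had an unadjusted p under 0.05, which 1.32% of all genes had. The edgeR test likewise called 0 of the 8, with adjusted p values between 0.745 and 0.798, and limma-voom called 0. The mean was higher in p300-ifKO for Aplp1, Psen2, Apoe and Clu and lower for App, Aplp2, Bace1 and Mapt. The median log2 fold change of the 8 was -0.0050, beside -0.0044 over all genes with a mean of at least 100 normalized counts. The 2 groups overlapped for all 8 genes, whereas they did not overlap for 6.58% of genes at that level.

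**Figure D1:**
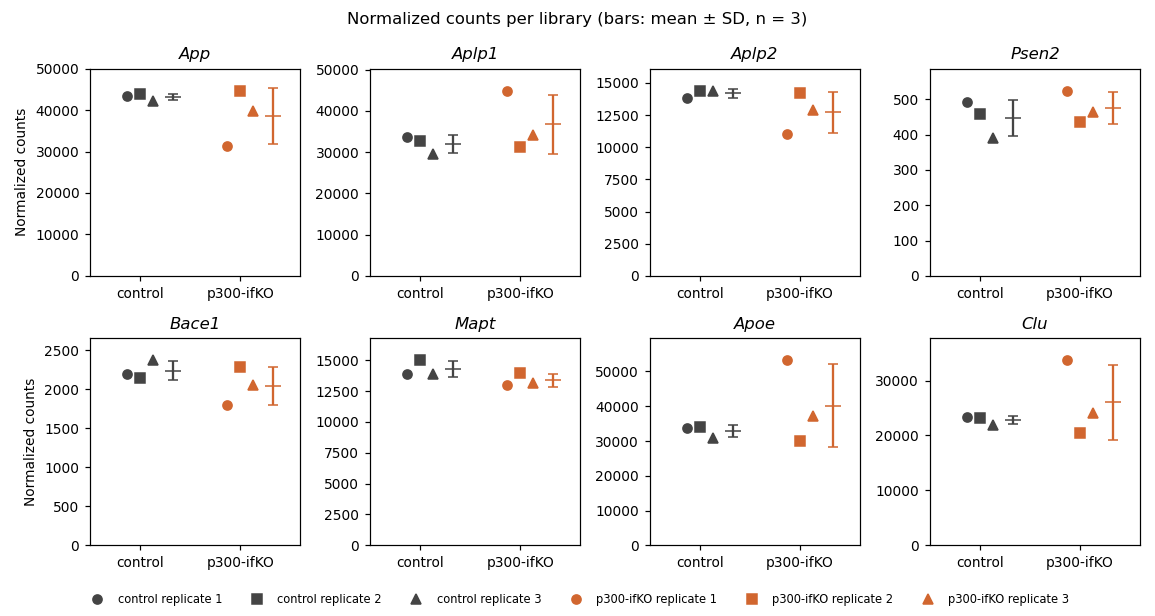
Normalized counts (vertical axis, starting at 0) of the 8 genes in the 3 control and the 3 p300-ifKO libraries, 1 symbol per replicate, with the mean ± SD (n = 3) of each group beside them. The 2 groups overlap in every panel, and p300-ifKO replicate 1 is the highest or the lowest library in every panel.

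App (ENSMUSG00000022892) lies on chromosome 16, 84949685 to 85173766 on GRCm38, minus strand. It had 43517, 43788 and 42293 normalized counts in control mice and 31445, 44663 and 39667 in p300-ifKO mice. Both the lowest library (p300-ifKO replicate 1) and the highest (p300-ifKO replicate 2) were p300-ifKO, and the controls lay close together between replicates 3 and 2. Control and p300-ifKO mice averaged 43199.5 ± 796 and 38592 ± 6675 (SD, n = 3 each), which gave a log2 fold change of -0.16 (DESeq2, SE 0.16, 95% interval -0.47 to 0.14). Without p300-ifKO replicate 1 the log2 fold change was -0.04 (SE 0.10), so 1 library carried most of the difference. The gene level count does not separate the App splice forms that neurons and glia make.

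Aplp1 (ENSMUSG00000006651), a member of the family made by neurons, lies on chromosome 7, 30434982 to 30445535, minus strand. Its normalized counts were 33597, 32625 and 29449.6 in control mice and 44856, 31225 and 34083 in p300-ifKO mice. Of these, p300-ifKO replicate 1 was well above the other 5 libraries, replicate 3 lay just above the controls and replicate 2 lay among them. The group means of 31891 ± 2169 and 36722 ± 7188 (SD, n = 3 each) gave a log2 fold change of 0.20 (DESeq2, SE 0.17, 95% interval -0.12 to 0.53), and 0.03 (SE 0.10) remained without that library.

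Aplp2 (ENSMUSG00000031996), the member of the family found in most tissues, lies on chromosome 9, 31149557 to 31211815, minus strand. Control mice had 13803, 14391 and 14379 normalized counts, and p300-ifKO mice had 11047, 14179 and 12889. Replicate 1 of p300-ifKO was the lowest, replicate 3 the next, and replicate 2 lay among the controls. With means of 14191 ± 336 and 12705 ± 1574 (SD, n = 3 each), the log2 fold change was -0.16 (DESeq2, SE 0.13, 95% interval -0.42 to 0.10), and without replicate 1 it was -0.07 (SE 0.10).

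The promoter windows of 4 of these genes are shown, and those of Psen2 are described below. For App and Aplp2, p300-ifKO replicate 1 was the lowest library, and for Aplp1 and Apoe it was the highest. That split went with exonic length over the genes of the table, and a link with promoter sequence was not tested. Each window runs from 250 bases before to 50 bases after a RefSeq start site on GRCm38.p6, 5′ to 3′ on the strand of the gene, which is minus for all 4. RefSeq entries matched 5 of the 8 genes, App, Aplp1, Aplp2, Psen2 and Apoe. Capitals mark the motifs searched on both strands, which were the GC box (GGGCGG or CCGCCC), the cAMP response element (TGACGTCA), the CCAAT box (CCAAT or ATTGG) and the TATA box (TATAAA or TTTATA). The windows are App at chr16:85173658-85173957, Aplp1 at chr7:30445533-30445832, Aplp2 at chr9:31211799-31212098 and the first start site of Apoe at chr7:19699139-19699438.
App: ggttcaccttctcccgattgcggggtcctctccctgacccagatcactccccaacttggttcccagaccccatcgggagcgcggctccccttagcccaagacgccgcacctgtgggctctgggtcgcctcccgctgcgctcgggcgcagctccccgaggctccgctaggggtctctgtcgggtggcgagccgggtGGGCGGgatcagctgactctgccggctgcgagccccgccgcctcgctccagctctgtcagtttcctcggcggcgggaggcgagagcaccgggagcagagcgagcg
Aplp1: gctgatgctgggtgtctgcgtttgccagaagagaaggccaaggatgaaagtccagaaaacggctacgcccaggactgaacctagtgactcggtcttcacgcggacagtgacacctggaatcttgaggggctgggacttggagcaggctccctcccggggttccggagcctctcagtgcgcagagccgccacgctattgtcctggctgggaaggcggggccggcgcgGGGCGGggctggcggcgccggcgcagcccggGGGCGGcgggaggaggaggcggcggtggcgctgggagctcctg
Aplp2: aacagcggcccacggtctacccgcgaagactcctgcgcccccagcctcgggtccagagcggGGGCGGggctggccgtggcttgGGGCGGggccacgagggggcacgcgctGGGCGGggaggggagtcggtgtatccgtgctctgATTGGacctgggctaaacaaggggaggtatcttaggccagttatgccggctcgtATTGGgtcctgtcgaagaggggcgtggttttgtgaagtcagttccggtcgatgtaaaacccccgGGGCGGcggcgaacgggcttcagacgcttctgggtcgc
Apoe: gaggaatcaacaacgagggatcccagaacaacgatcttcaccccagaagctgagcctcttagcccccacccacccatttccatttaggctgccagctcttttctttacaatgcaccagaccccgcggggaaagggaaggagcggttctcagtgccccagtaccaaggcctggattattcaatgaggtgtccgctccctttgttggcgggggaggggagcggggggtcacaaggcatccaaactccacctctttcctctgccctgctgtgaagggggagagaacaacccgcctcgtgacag
The App window held 1 GC box, that of Aplp1 held 2, and that of Aplp2 held 4 GC boxes and 2 CCAAT boxes, none of them overlapping, while none of the 4 motifs was in the Apoe window. Of 32851 promoter windows of the same length, 35.7% held a GC box, 37.4% a CCAAT box, 13.6% a TATA box and 1.79% a cAMP response element. GC content was 71% for App, 68.7% for Aplp1, 67% for Aplp2 and 57.7% for Apoe, beside a median of 52.7% over all windows. Apoe has 2 further start sites in RefSeq, whose windows held 0 GC boxes. In 1 of them 2 TATA boxes, 1 on each strand, overlapped in a single stretch. GC boxes were thus present in the windows of App, Aplp1 and Aplp2 and in none of Apoe, which describes the letters only.

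Psen2 (ENSMUSG00000010609), which encodes a presenilin, a catalytic subunit of gamma-secretase, lies on chromosome 1, 180227004 to 180263438, minus strand. It had 492, 458 and 391 normalized counts in control mice and 524, 435 and 464 in p300-ifKO mice. Mice of both genotypes were mixed, with p300-ifKO replicate 1 highest and control replicate 3 lowest. Means of 447 ± 51.6 and 474 ± 45.6 (SD, n = 3 each) gave a log2 fold change of 0.08 (DESeq2, SE 0.16, 95% interval -0.23 to 0.40). Without p300-ifKO replicate 1 it was 0.0058 (SE 0.16). Its counts were the lowest of the 8, with a counting CV of 5.11% in the library with the fewest, beside a CV of 11.5% over the control mice. Its first window (chr1:180256251-180256550) held 4 GC boxes at a GC content of 65.7%, and the window of its second start site (chr1:180245901-180246200) held 0 at 47.7%.

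Bace1 (ENSMUSG00000032086) lies on chromosome 9, 45838580 to 45864399, plus strand. Its normalized counts were 2195, 2145 and 2372 in control mice and 1796, 2279.9 and 2054 in p300-ifKO mice. The lowest library was p300-ifKO replicate 1, and replicate 2 lay between the 2 highest controls. From means of 2237 ± 119 and 2043 ± 242 (SD, n = 3 each), the log2 fold change was -0.13 (DESeq2, SE 0.14, 95% interval -0.40 to 0.14), or -0.05 (SE 0.11) without replicate 1. Of its exonic stretches of 50 bases, the read length, 28.5% also lie in exons of other genes. Rnf214, on the opposite strand, shared the most of 327 such genes, at 14.4% of the stretches. A strand setting was not stated for the counting, so its values are uncertain.

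Mapt (ENSMUSG00000018411) lies on chromosome 11, 104231390 to 104332090, plus strand. Control mice had 13913, 14995 and 13882 normalized counts and p300-ifKO mice 12964, 13935 and 13186. The group ranges met only through p300-ifKO replicate 2, which lay just above 2 of the controls. Mapt had the narrowest interval of the 8 genes: means of 14264 ± 634 and 13362 ± 508 (SD, n = 3 each) gave a log2 fold change of -0.09 (DESeq2, SE 0.10, 95% interval -0.29 to 0.11). It was also the gene least altered by leaving out p300-ifKO replicate 1 among the 4 with lower means, at -0.07 (SE 0.10). The count does not separate tau forms with 3 or 4 microtubule repeats.

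Apoe (ENSMUSG00000002985) lies on chromosome 7, 19696109 to 19699188, minus strand. It had 33605, 33923 and 30780.3 normalized counts in control mice and 53217, 30116 and 37272 in p300-ifKO mice. The p300-ifKO mice held both extremes, with replicate 1 far above and replicate 2 just below all the controls. Control mice averaged 32769 ± 1729.95 and p300-ifKO mice 40202 ± 11826 (SD, n = 3 each). The log2 fold change of 0.29 (DESeq2, SE 0.21, 95% interval -0.12 to 0.70) was the one farthest from 0 among the 8. Without p300-ifKO replicate 1 it was 0.04 (SE 0.11).

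Clu (ENSMUSG00000022037) lies on chromosome 14, 65968483 to 65981547, plus strand. Its normalized counts were 23406, 23168 and 21908 in control mice and 33690, 20429 and 24029.7 in p300-ifKO mice, so the order of the libraries was nearly that of Apoe. Means of 22827 ± 805 and 26049 ± 6857 (SD, n = 3 each) gave a log2 fold change of 0.19 (DESeq2, SE 0.19, 95% interval -0.19 to 0.57). The sign turned without p300-ifKO replicate 1, at -0.04 (SE 0.10). Apoe and Clu varied most between p300-ifKO mice, with CVs of 29.4% and 26.3%, against 5.28% and 3.52% between control mice. The summed normalized counts of 8 astrocyte markers were between 113736 and 118036 in control mice and between 98516 and 112511 in p300-ifKO mice, and the sum was lowest in replicate 1, in which Apoe and Clu were highest. Of these astrocyte markers 2 were higher and 6 lower in mean, and Gfap was highest in replicate 1, unlike the sum. The 9 microglia markers summed to between 10024 and 10960.1 in control mice and to between 10916 and 13924 in p300-ifKO mice, highest in the same replicate 1. Of these 7 were higher and 2 lower in mean, and the lower 2, Cx3cr1 and P2ry12, were lowest in that replicate. No marker of either list passed the threshold, and the part of cell makeup in the values of Apoe and Clu was not tested.

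The direction of each gene in p300-ifKO replicate 1 went with its length. The 4 genes with higher means had exonic lengths (all annotated exons merged) between 2138 and 4332 bases, and the 4 with lower means between 5875 and 12996 bases. In replicate 1, Apoe was 0.70 above the control mean on the log2 scale, Clu 0.56, Aplp1 0.49 and Psen2 0.24. Below the control mean in the same library were App by -0.46, Aplp2 by -0.36, Bace1 by -0.32 and Mapt by -0.14. The genes of the table did likewise. The 3929 genes in the shorter length range with a mean of at least 100 normalized counts had a median deviation of 0.22 in replicate 1, and the 3942 in the longer range had -0.29. Replicate 3 showed the same trend at a smaller size (0.08 and -0.09), and replicate 2 the opposite one (-0.03 and 0.05). The trend was not confined to p300-ifKO libraries. Control replicate 3 ran from a median of -0.14 for genes under 1000 bases to 0.11 for those between 10000 and 15000 bases. In p300-ifKO replicate 2, Apoe was at -0.12, Clu at -0.16, Aplp1 at -0.03 and Psen2 at -0.03, while App was at 0.05, Bace1 at 0.03, Aplp2 at -0.00092 and Mapt at -0.03. Mapt was thus below the control mean there although most genes of its length range were above it. Over all 6 libraries, 70.7% of the genes in the shorter range and 23.5% of those in the longer range had a higher mean in p300-ifKO. The 8 genes thus split as most genes of their lengths did, and the part of length in each value was not tested.

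**Figure D2:**
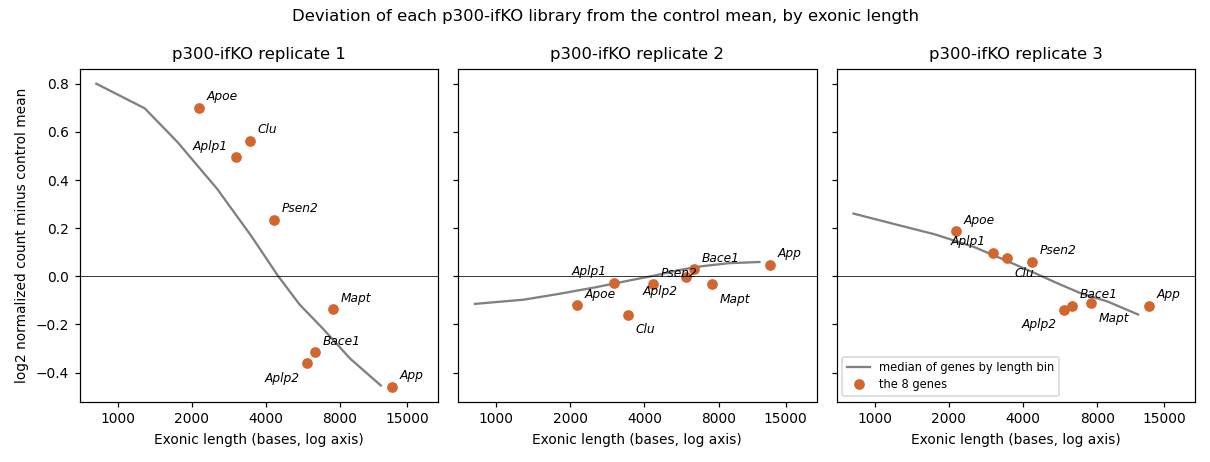
Log2 normalized count minus the control mean (vertical axis) against exonic length (horizontal log axis, bases) in each p300-ifKO library, for the 8 genes (points) and for the median of all genes with a mean of at least 100 normalized counts in bins of length (line). In replicate 1 the points fall from 0.70 for Apoe, the shortest, to -0.46 for App, the longest. There Apoe, Clu, Aplp1, Psen2 and Mapt lie above the line, Aplp2 and Bace1 below it, and App past its end. In replicate 2 the points stay between -0.16 and 0.05.

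The fold changes were also computed with other fits and without single libraries. With length and GC offsets for each library, the log2 fold changes were 0.13 (SE 0.13) for Apoe, 0.11 (SE 0.15) for Clu, 0.08 (SE 0.10) for Aplp1 and 0.06 (SE 0.14) for Psen2. The others were -0.12 (SE 0.09) for Aplp2, -0.06 (SE 0.09) for Bace1, -0.04 (SE 0.09) for Mapt and 0.03 (SE 0.11) for App, whose sign turned. With 1 surrogate variable, whose value was most negative in p300-ifKO replicate 1, all 8 were below 0, between -0.09 for Clu and -0.0066 for Aplp1. Neither fit called any of the 8. Without p300-ifKO replicate 2, DESeq2 called 938 of 11129 genes (8.43%), and 1 of the 8 was among them. This was Apoe, at 0.47 on the log2 scale (SE 0.16, DESeq2 adjusted p = 0.0447), while its adjusted p was at least 0.745 in every other fit run. The same fit gave 0.34 (SE 0.15, adjusted p = 0.115) for Clu, 0.31 (SE 0.15, adjusted p = 0.132) for Aplp1 and -0.28 (SE 0.13, adjusted p = 0.138) for App.

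**Figure D3:**
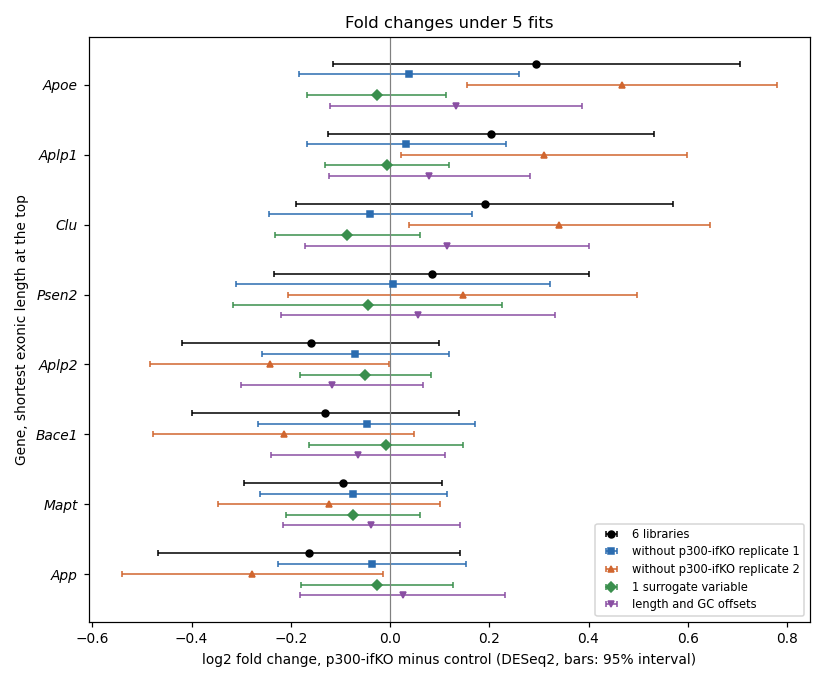
DESeq2 log2 fold change (horizontal axis, p300-ifKO minus control, bars are 95% intervals) of the 8 genes, ordered by exonic length with the shortest at the top, under 5 fits. With all 6 libraries every interval includes 0, from Apoe at 0.29 to App at -0.16, and without p300-ifKO replicate 1 the values lie between -0.07 and 0.04.

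Levels were compared between the genes as TPM, counts per exonic base scaled to the same sum in every library. Apoe was the most abundant of the 8 in control mice at 2345 ± 75.5 TPM (SD, n = 3), place 21 of all genes. Next were Aplp1 at 1617 ± 86.9 TPM (place 36), Clu at 1016 ± 23.8 TPM (place 69) and App at 509 ± 6.13 TPM (place 196). Aplp2 followed at 369.8 ± 12.9 TPM, Mapt at 289.8 ± 6.68 TPM, Bace1 at 54.0 ± 4.27 TPM and Psen2 at 15.8 ± 1.62 TPM. No neighbours in this order overlapped among the control libraries. Over all 6 libraries the ranges of App and Aplp2 and those of Aplp2 and Mapt overlapped, although the higher of each pair was above the lower in 6 of 6 libraries.

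In p300-ifKO mice the order was the same, with Apoe at 2731 ± 570 TPM, Aplp1 at 1778 ± 196, Clu at 1103 ± 195, App at 442 ± 110.01, Aplp2 at 321 ± 64.8, Mapt at 262 ± 30.6, Bace1 at 47.8 ± 9.41 and Psen2 at 16.1 ± 0.199 TPM (SD, n = 3). The means of p300-ifKO replicates 2 and 3 alone kept that order, with Apoe at 2422, Aplp1 at 1666, Clu at 995, App at 501, Aplp2 at 355, Mapt at 278, Bace1 at 52.7 and Psen2 at 15.97 TPM. The exonic length counts exons of every annotated transcript, which for App makes 12996 bases beside a median of 3220 for its protein-coding transcripts. With the coding transcript length, App moved from place 4 to place 3 of the 8 (1293 ± 14.2 TPM in control mice, n = 3), close below Aplp1 (1311 ± 70.3), and App and Aplp1 overlapped. Mapt (617 ± 14.8 TPM) then stood above Aplp2 (390.3 ± 13.5 TPM). Apoe stayed first at 2828 ± 91.5 TPM, and Bace1 and Psen2 stayed last at 42.7 ± 3.35 and 21.5 ± 2.21 TPM. The secretase genes were thus the lowest of the 8 under both lengths.

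**Figure D4:**
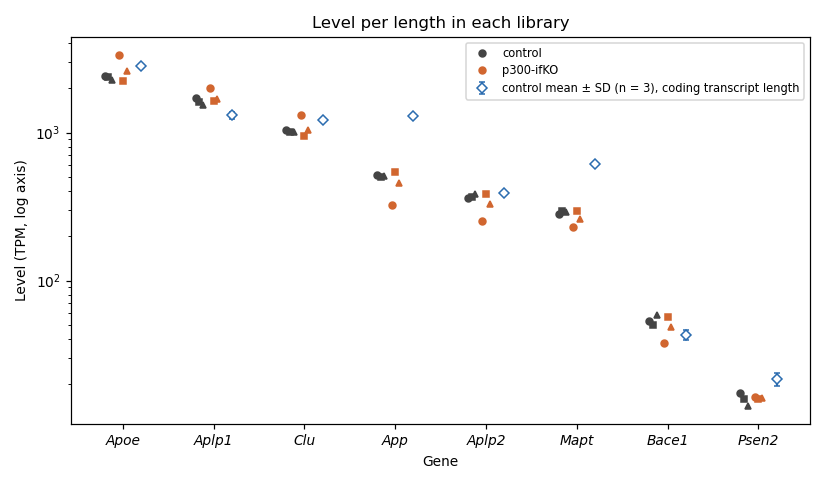
Level of the 8 genes (TPM, log axis) in each control and p300-ifKO library with the exonic length, and as control mean ± SD (n = 3) with the median coding transcript length (open diamonds). Apoe is highest and Psen2 lowest under both lengths, while App and Mapt move up with the coding transcript length, to 1293 and 617 TPM.

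The balance among related genes was tested as a share of summed TPM, which does not depend on how libraries are scaled to each other. A trend with length within a library can still move a share. Exonic lengths were 12996 bases for App, 3017 for Aplp1, 2138 for Apoe and 3437 for Clu. App made up 19.9%, 20.3% and 21.0% of the App, Aplp1 and Aplp2 sum in control mice and 12.6%, 21.2% and 18.5% in p300-ifKO mice. The shares overlapped, and the exact permutation test (two-sided, 3 against 3, smallest possible p 0.1) gave p = 0.4. Aplp1 held 64.8% ± 1.53 in control mice and 69.9% ± 6.98 in p300-ifKO mice (SD, n = 3, exact permutation p = 0.3), and Aplp2 held 14.8% ± 0.941 and 12.7% ± 2.6 (exact permutation p = 0.3). Without p300-ifKO replicate 1 the differences shrank from 5.15 to 1.32 percentage points for Aplp1, from -2.97 to -0.57 for App and from -2.18 to -0.76 for Aplp2.

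The share of Apoe in the sum of Apoe and Clu was the only one of these 4 shares whose groups did not overlap. It was 69.8%, 70.2% and 69.3% in control mice and 71.7%, 70.3% and 71.4% in p300-ifKO mice, a difference of 1.39 percentage points. The exact permutation p was 0.1, the smallest this design allows, and 0.5 after Benjamini-Hochberg adjustment over the 5 shares tested, so the difference did not pass. Replicate 2 of p300-ifKO was above the highest control by a small margin only. The difference was 1.09 percentage points without p300-ifKO replicate 1. The groups were also apart with the coding transcript length and with normalized counts in place of TPM.

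The genes whose pattern over the 6 libraries was most like that of each of the 8 were found among the 12253 genes with a mean of at least 100 normalized counts. Likeness was the root mean square difference of log2(normalized count + 1) after the mean of each gene was taken off, and a smaller value is more alike. Esf1 (0.0090) and Rab27b (0.015) were nearest to App, Sec11c (0.015) and Cnpy3 (0.017) to Aplp1, and Rab5b (0.014) and Zfp664 (0.014) to Aplp2. Trmt10c (0.020) and Nsg2 (0.022) were nearest to Psen2, Fnbp1 (0.013) and Nfatc2ip (0.015) to Bace1, and Hspa4 (0.017) and Hsph1 (0.018) to Mapt. Ntmt1 (0.018) and Faap20 (0.018) were nearest to Apoe, and Cxcl14 (0.018) and Phgdh (0.019) to Clu. Within the 8, Aplp2 and Bace1 were each other's nearest (0.046), as were Apoe and Clu (0.059). App was nearest to Aplp2 (0.053), Aplp1 to Clu (0.066), Mapt to Aplp2 (0.091) and Psen2 to Aplp1 (0.10). Trends with length differed in size and direction between the 6 libraries, and the values describe likeness in them only.

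Other genes of the pathway were read from a list of 51. None passed the threshold in DESeq2 (background 0.0061%), edgeR or limma-voom, with 22 higher and 29 lower means and a median log2 fold change of -0.04. The unadjusted p (DESeq2) was under 0.05 for 3 of the 51, against 1.32% of all genes. Among genes with a mean of at least 100 normalized counts it was so for 285 of 12252 tested. The groups did not overlap for 1 of the 51, against 6.58% of genes at that level. That gene was Apba3, an adaptor that binds the intracellular tail of App, with 640.1, 519.6 and 609 normalized counts in p300-ifKO mice and 464, 471 and 504 in control mice. Each p300-ifKO library was above each control, at a log2 fold change of 0.30 (DESeq2, SE 0.15, adjusted p = 0.991), or 0.23 without p300-ifKO replicate 1.

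The other 2 were the microglial lipid and apolipoprotein receptor Trem2 and its signalling partner Tyrobp. Trem2 had 436, 375 and 359 normalized counts in control mice and 667, 434 and 461 in p300-ifKO mice (log2 fold change 0.42, SE 0.21, DESeq2 adjusted p = 0.991). Tyrobp had 456, 416 and 388 in control mice and 730.3, 451 and 569 in p300-ifKO mice (log2 fold change 0.47, SE 0.21, DESeq2 adjusted p = 0.991). In both, p300-ifKO replicate 1 was the highest library and replicate 2 lay within the control range. The microglia marker sum was highest in the same library, although the markers Cx3cr1 and P2ry12 were lowest there. Without that library the log2 fold changes were 0.20 for Trem2 and 0.28 for Tyrobp. With length and GC offsets they were 0.44 and 0.32, and with 1 surrogate variable 0.16 and 0.20. Exonic lengths were 4946 bases for Trem2 and 667 for Tyrobp. In p300-ifKO replicate 1, genes under 1000 bases had a median deviation from the control mean of 0.80, and those between 4000 and 5000 bases of 0.0034. The parts of length and cell makeup in these values were not tested.

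By role, the 6 gamma-secretase genes had 3 higher and 3 lower means (median -0.02), from Aph1b at -0.19 to Psenen at 0.36, which were -0.04 and 0.15 without p300-ifKO replicate 1. The 4 other secretases were all lower in mean (median -0.13), from Adam17, an alpha-secretase, at -0.0061 to Bace2, the paralogue of Bace1, at -0.75 (SE 0.48). Bace2 had 150.1, 36.8 and 155 normalized counts in control mice and 60.1, 50.4 and 92.6 in p300-ifKO mice, so control replicate 2 lay below all the p300-ifKO mice. Without p300-ifKO replicate 1, Bace2 was at -0.67, whereas the other 3 of these secretases turned to higher means, as they did with 1 surrogate variable. The 4 amyloid-beta degrading enzymes were between -0.09 (Ide, the insulin-degrading enzyme) and -0.03 (Ece1), and 3 of the 4 turned without p300-ifKO replicate 1, with Ide at 0.13, Mme at 0.08 and Ece1 at 0.0099. The 11 App adaptors and trafficking genes had a median of 0.10, from Apba1 at -0.23 to Apba3, and of 0.03 without that library, with Apba1 at -0.12. The 10 apolipoprotein receptors and lipid transfer genes had a median of 0.06, from the lipid exporter Abca1 at -0.23 to Tyrobp, and Abca1 was at -0.0063 without that library.

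Of the 11 tau kinases and phosphatase genes 6 were higher and 5 lower in mean (median 0.03), and they ran from Gsk3b at -0.18 to Cdk5 at 0.32, both kinases of tau, which were at -0.03 and 0.10 without p300-ifKO replicate 1. The 5 other microtubule-associated proteins had 4 lower means (median -0.21), with Map1b at -0.33 lowest and Map6 at 0.08 highest, beside -0.09 for Mapt. These 5 genes are long, with exonic lengths between 9152 and 16456 bases, and without p300-ifKO replicate 1 their median was -0.08, with Map1b at -0.18. Over all 51, 28 were then higher and 23 lower. No role held a called gene. Without p300-ifKO replicate 2, 47 of the 51 had an adjusted p and 5 of these passed, against 8.43% of all genes tested. Of the 5, Tyrobp was higher and Map1a, Map1b, Lrp1 and Apba1 were lower. With 1 surrogate variable 29 of the 51 were higher and 22 lower, with length and GC offsets 30 and 21, and neither called any. Counts of Ece2, Ppp2ca, Aph1a, Gsk3a, Psenen, Aph1b and Aph1c are uncertain, since between 18.4% and 54.6% of their exonic stretches also lie in other genes.

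**Figure D5:**
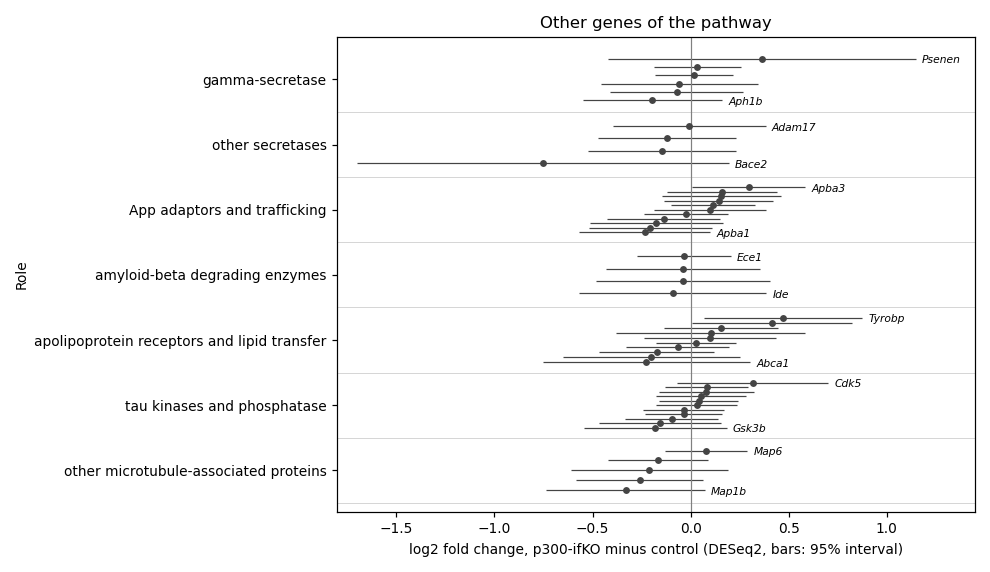
DESeq2 log2 fold change (horizontal axis, p300-ifKO minus control, bars are 95% intervals) of the 51 other genes, grouped by role, with the lowest and the highest gene of each role named. Only the intervals of Apba3, Trem2 and Tyrobp leave out 0, at 0.30, 0.42 and 0.47, and none of the 3 passed after adjustment.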

How the data were processed

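Total RNA of the hippocampus was sequenced as single-end reads of 50 bases, and the authors deposited a table of raw read counts by gene. Per the submitters' processing notes, FastQC 0.11.8, Trim Galore 0.6.4, STAR 2.6.1 and DESeq2 1.30.1 were used with the GRCm38 genome. The study's methods add that reads above a mapping quality limit were counted on exons of Ensembl genes with Rsubread. Such a limit lowers counts of genes with near-identical copies, and a strand setting was not stated. Groups and replicate numbers came from the sample titles. Per-sample columns left unused numbered 0.

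Of 55471 genes, 55230 (99.57%) matched GENCODE release M21 by identifier, which gave symbols, coordinates and lengths. Counts were compared with the two-sided Wald test of DESeq2 (version 1.42.0, R 4.3.3), with median-of-ratios size factors and no covariate, Benjamini-Hochberg adjustment over 32773 genes and a threshold of 0.05. Intervals are 95% intervals. Each library came from a different mouse, and each of the 15 pairs of libraries differed by more than sampling noise (chi-square per degree of freedom at least 4.72). Total counts of 23151568 to 28433823 put counting error under 1% for App, Aplp1, Aplp2, Mapt, Apoe and Clu. Alternatives were edgeR (version 4.0.16) and limma-voom (limma 3.58.1), TMM factors, a minimum of 10 counts in 3 libraries, no independent filtering, a threshold of 0.1, a replicate block, 1 surrogate variable (sva 3.50.0), smooth length and GC offsets (mgcv 1.9.3) and leaving out each library. Levels by coding transcript length were added after seeing the data. The DESeq2, edgeR, voom, surrogate variable, offset and block fits were also tested on simulated counts. Named genes were the 8, Ep300, Crebbp, Esr1 and Arsi, the 2 genes most alike to each of the 8, and, of the pathway list, Bace2, the lowest and highest of each role and those with an unadjusted p under 0.05. Rnf214, Mme, Lrp1, Map1a, the markers Gfap, Cx3cr1 and P2ry12 and the genes named for shared sequence were chosen after their values were seen. Of the 5 shares tested, 1 is not reported here. The 8 genes and the lists were chosen with earlier results of these data known.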

Additional observations from a re-analysis of the deposited data

How the results depend on the processing

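Of 64 log2 fold changes of the 8 genes under alternatives that kept every library, 5 changed sign, and of 48 from fits without 1 library, 2 did. The 5 were App at 0.026 with length and GC offsets, and Aplp1 at -0.0066, Psen2 at -0.045, Apoe at -0.027 and Clu at -0.086 with 1 surrogate variable. The 2 were Psen2, between -0.00086 (without control replicate 3) and 0.16, and Clu, between -0.039 (without p300-ifKO replicate 1) and 0.34. Without 1 library, DESeq2 called between 2 and 938 genes, between 0 and 1 of the 8, which was Apoe, and between 0 and 5 of the 51 pathway genes. The high end in each case was the fit without p300-ifKO replicate 2, in which 47 of the 51 had an adjusted p, and the cause was not tested. With the replicate number as a block the count over all genes was 4, and none of the 8 was called. Whether a shared number marks a litter or a batch is not stated. Deviations of same-numbered mice from their group means correlated at 0.39, -0.41 and 0.14 over 12253 genes. Deviations within a group of 3 sum to 0, so these values do not decide it. By TMM-scaled counts (CPM), which ignore length, the order was App at place 1, Apoe 2, Aplp1 3, Clu 4, Mapt 5 and Aplp2 6. The coding transcript length put App at place 3, Clu 4, Mapt 5 and Aplp2 6. Among the 51 pathway genes, 22 were higher with all libraries, 28 without p300-ifKO replicate 1 and 29 with 1 surrogate variable, so directions there turned too. For the 8 genes, no other fold change or count changed its direction or its side of the threshold in the alternatives run. None of the reported shares changed the direction of its difference, and none could pass the threshold in this design. With 3 mice a group, the widest 95% interval of a log2 fold change among the 8 ran from -0.12 to 0.70 (Apoe). The narrowest ran from -0.29 to 0.11 (Mapt), and smaller differences could not be shown. Larger differences could also miss the threshold, which was set on p adjusted over all genes tested. The targeted gene Ep300, at -0.97 on the log2 scale (SE 0.33, DESeq2 adjusted p = 0.991), did not pass.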

Other observations

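Marker lists that enter no comparison above overlapped between the groups. The summed normalized counts of 8 oligodendrocyte markers were between 108506 and 147885 in control mice and between 117768 and 150122 in p300-ifKO mice. Those of 8 excitatory neuron markers, the cells in which the driver acts, were between 68714 and 79619.8 in control mice and between 74889 and 86759 in p300-ifKO mice, with 3 markers higher and 5 lower in mean. The 7 choroid plexus markers summed to between 757 and 3836 in control mice and to between 1412 and 5539 in p300-ifKO mice, a wide range in both groups. No marker of these lists passed the threshold.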
